A study of Homo sapiens with 6 samples.

Results

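The 48 genes described here encode developmental homeobox transcription factors that lie outside the HOX clusters, on the autosomes. They were listed by name, with no threshold on a measured value but with earlier results of these data known: homeobox genes of the HOX, PAX, NKX, LIM and POU groups were left out, and all 48 were found among the 19812 protein-coding genes of chromosomes 1 to 22 and X. By the structure of the homeodomain, 29 belong to the ANTP class (the DLX, EN, EVX, GSX, MSX and BARHL families among them), 10 to the PRD class (such as ALX4, OTP, PITX1, PRRX1 and UNCX), 3 to the SINE class (SIX2, SIX3 and SIX6) and 6 to the TALE class (IRX1 to IRX6). For each gene, CpG methylation was taken over the promoter, over 20 tiles of 1 kb reaching 10 kb to each side of the transcription start, and over the gene body. The tiles that gained methylation in reset cells were counted and placed.

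The data are whole-genome bisulfite libraries of H9 cells, a human embryonic stem cell line in wide use, with 3 libraries for conventional and 3 for reset cells. Conventional cells, titled primed in the labels, grew in FGF/KSR medium, which holds 10 ng/ml bFGF and 20% KSR. Reset cells had been transfected with doxycycline-inducible NANOG and KLF2 transgenes, were induced for about 2 weeks and were then kept without doxycycline in t2iL+Gö, which holds 1 μM CHIR99021, 1 μM PD0325901, human LIF and 5 μM of the protein kinase C inhibitor Gö6983. Both kinds of cells grew on mouse embryonic fibroblast feeders at 5% oxygen. The study calls its bisulfite libraries biological replicates. Neither the labels nor the methods say how many separate resettings the reset libraries represent, or whether the conventional cells carried the transgenes. The p-values below therefore cover only counting error and the spread between these libraries. Resetting, culture medium and the history of the cells cannot be told apart in this design.

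Homeodomain proteins bind DNA and assign positions and cell fates in the embryo: in the forebrain and eye, the midbrain and hindbrain, the somites and limbs, the face, the pancreas and other organs. In undifferentiated pluripotent cells most of these genes are silent but not methylated. They lie in unusually wide CpG-rich stretches that are held by Polycomb complexes and stay free of DNA methylation far beyond the transcription start, a form of chromatin often called a DNA methylation valley.

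Depth was low, and lower in reset than in conventional cells. A library held 70255576 to 97920785 calls on chromosomes 1 to 22 and X, or 2.51 to 2.86 calls per CpG in reset and 3.28 to 3.49 in conventional libraries, and 85.0 to 89.2% of the 27999103 CpGs had at least 1 call. Levels were therefore taken as the percentage of methylated calls over all CpGs of a feature with at least 10 calls in every library. The pluripotency genes looked at beside the labels had promoters whose mean, over 12 genes, was 21.8% ± 0.245 in conventional and 2.21% ± 0.180 in reset cells (SD, n = 3), with 7 of the 12 lower in reset cells, among them DPPA3 and ZFP42, and 5 with no call in either direction, among them NANOG and SOX2. This share was not above that of all coding promoters (67.4% lower), so it does not check the labels by itself. Coverage within 100 kb of the members, relative to the library mean, had a ratio of reset to conventional cells of 0.912 to 1.17 for 47 of them. UNCX, near the start of chromosome 7, stood apart with a ratio of 1.60.

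Short stretches of the 3 tiles with the largest rises are shown to make their CpG content visible, with 2 stretches next to starts that stayed nearly free of methylation in both groups. Within each tile the stretch with the most CpGs outside UTRs was taken, and the 2 starts are those with the most CpGs. All are 200 bp of the GRCh37 sequence, written 5′ to 3′ on the strand of the gene, with CpGs in capitals.
PITX1, chr5:134363040-134363239, minus strand, 6679 to 6878 bp after the start and just past the 3′ end of the gene: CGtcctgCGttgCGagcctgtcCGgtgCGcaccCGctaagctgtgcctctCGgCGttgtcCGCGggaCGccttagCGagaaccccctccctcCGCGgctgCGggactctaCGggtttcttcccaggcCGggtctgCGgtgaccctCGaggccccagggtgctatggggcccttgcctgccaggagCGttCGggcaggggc
SIX3, chr2:45170001-45170200, plus strand, 1160 to 1359 bp after the start, overlapping an exon: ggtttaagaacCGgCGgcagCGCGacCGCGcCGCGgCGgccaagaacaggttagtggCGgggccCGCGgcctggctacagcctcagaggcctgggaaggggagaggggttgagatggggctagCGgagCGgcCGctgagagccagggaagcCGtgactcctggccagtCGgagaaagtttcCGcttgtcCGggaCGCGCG
IRX4, chr5:1881823-1882022, minus strand, 1017 to 1216 bp after the start, overlapping an exon: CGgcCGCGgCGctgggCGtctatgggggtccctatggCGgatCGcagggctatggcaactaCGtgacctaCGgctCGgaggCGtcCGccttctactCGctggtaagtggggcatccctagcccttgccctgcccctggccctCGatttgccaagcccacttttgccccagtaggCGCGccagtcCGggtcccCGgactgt
HHEX, chr10:94449512-94449711, plus strand, the 200 bp before the start: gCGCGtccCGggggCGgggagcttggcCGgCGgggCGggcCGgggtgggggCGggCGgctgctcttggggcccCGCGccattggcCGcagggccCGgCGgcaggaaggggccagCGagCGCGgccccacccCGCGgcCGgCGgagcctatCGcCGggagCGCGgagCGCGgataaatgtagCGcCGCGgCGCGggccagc
MNX1, chr7:156803358-156803557, minus strand, the 200 bp before the start, overlapping an exon of the antisense gene MNX1-AS1: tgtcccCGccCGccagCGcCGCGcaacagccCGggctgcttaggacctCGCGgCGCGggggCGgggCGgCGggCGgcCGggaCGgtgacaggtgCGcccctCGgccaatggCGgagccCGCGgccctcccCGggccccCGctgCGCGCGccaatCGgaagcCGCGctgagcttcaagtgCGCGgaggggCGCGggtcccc

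The stretches of PITX1, SIX3 and IRX4 hold 21, 22 and 18 CpGs at 71, 69.5 and 67.5% GC. The SIX3 stretch had 1 methylated of 175 calls in conventional cells, summed over libraries, and 85 of 122 in reset cells. The IRX4 stretch had 1 of 88 and 85 of 115, and the PITX1 stretch 5 of 99 and 49 of 91, so that calls were thin in some libraries (at least 5). The HHEX and MNX1 stretches are denser still, with 33 CpGs each and 83.0 and 81% GC. In MNX1, 0 of 122 calls in conventional cells and 0 of 117 in reset cells were methylated, which allows levels of up to 2.46 and 2.56% from counting error alone. In HHEX it was 0 of 69, which allows up to 4.35%, and 1 of 164. These 5 stretches were picked by their methylation and CpG number, so they illustrate the sequences and say nothing of how the 2 relate.

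Most promoters of these genes were close to unmethylated in conventional cells, and 25 of 48 were called higher in reset cells, many by a few percentage points. The promoter was taken from 1000 bp before to 500 bp after the canonical start, and all 48 passed the minimum of calls (60 to 448 per promoter and library, median 223.5). The mean over promoters was 3.98, 3.67 and 3.86% in the conventional libraries and 10.0, 9.55 and 9.38% in the reset libraries (p = 0.1 in a two-sided exact permutation test, which cannot give less with 3 against 3). Reset libraries thus lay above every conventional library, while over 19293 coding promoters the mean went the other way, from 31.3% ± 0.216 to 12% ± 0.117 (SD, n = 3). A quasi-binomial model of the calls with dispersions squeezed by limma made these 25 calls, against a background of 3.98% of all promoters, and 3 lower, against 67.4%. The median change was 2.79 percentage points, and −9.59 over all promoters. With promoters cut to 500 bp before the start, 15 were called higher and 8 were raised by the rule given next.

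A feature is called raised below where the adjusted p was under 0.05, the mean rose by at least 10 points and every reset library lay above every conventional library. Of the 48 promoters 10 were raised, where 1.63% of all coding promoters were. In the quasi-binomial model with limma their adjusted p lay between 1.36e-07 and 7.99e-05. With the replicate number as a block in that model it lay between 7.86e-06 and 0.00105. The raised promoters came from the ANTP class (6), the PRD class (2) and the SINE class (2). Of the 6 IRX promoters 4 were called higher, by 2.17 to 3.18 points, and none of these gains reached 10 points. In IRX1, IRX2 and IRX3 the libraries of both groups also overlapped. IRX1 stood at 2.11, 0.355 and 0.498% in conventional and at 5.17, 6.89 and 0.429% in reset libraries.

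GSX2, a factor of the ventral forebrain, had the largest rise: its promoter stood at 1.29, 0 and 1.10% in the conventional libraries and at 47.9, 49.3 and 68.8% in the reset libraries, a gain of 54.5 points. EVX2, which lies beside the HOXD cluster and acts in limb and spinal cord, went from 8.54, 4.70 and 6.67% to 49.0, 44.2 and 34.6%. SIX3, required for the forebrain and the eye, went from 1.36, 0 and 3.41% to 32.7, 33.6 and 42.2%. The raised rule itself asks for groups that do not overlap, and in these 3 genes the gap between them was wide. PRRX1, a gene of limb and facial mesenchyme, rose from at most 1.05% to 49.6, 33.8 and 15%, so its reset libraries differed from each other by more than those of any other raised promoter. Its gain was 32.2 points with all libraries and 23.8 to 41.1 points when 1 library was left out.

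The other 6 raised promoters reached means of 14.5 to 17.3%. EN1, a regulator of midbrain and hindbrain, stood at 1.49, 2.26 and 1.24% and then at 24.2, 17.1 and 9.04%. MEOX2, a somite gene, stood at 3.18, 3.60 and 0.735% and then at 19.9, 18.4 and 13.6%. OTP, which specifies neurons of the hypothalamus, stood at 0.412, 0.420 and 0% and then at 16.7, 15.2 and 12%. The spread among reset libraries was widest in EN1 (SD 7.57). With the promoter cut to 500 bp before the start the rise of EN1 was 9.14 points, under the 10 points asked for. SIX6, a gene of the eye and pituitary, rose from 0.722% ± 0.195 to 14.5% ± 3.07, BARHL2, a neural gene, from 0.940% ± 0.209 to 14.5% ± 2.99, and DLX5, of the forebrain and the branchial arches, from 1.65% ± 1.55 to 14.8% ± 1.92 (SD, n = 3). The shorter promoter of DLX5 rose by 7.08 points. A promoter with no methylated call in a library, as in GSX2, SIX3, PRRX1, OTP and DLX5, had 107 to 220 calls there, which allows levels of up to 1.36 to 2.80%.

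The 3 promoters that were lower all stood above the median of the 48 in conventional cells (1.13%). MEOX1, the other somite gene of its family and the only promoter with no CpG island, fell from 64.7, 64.1 and 74.0% to 44.3, 33.8 and 36.1% (quasi-binomial model with limma, adjusted p = 0.000230). DLX3, a gene of ectoderm and placenta, fell from 7.94, 8.70 and 8.33% to 1.72, 3.79 and 3.85%, and PITX3, of the lens and of dopaminergic neurons, from 8.33, 5.00 and 6.37% to 3.09, 1.11 and 1.94%. The last 2 calls rested on the promoter's far end: with the promoter cut to 500 bp before the start the changes were −0.40 points for DLX3 and 0.0059 points for PITX3 (adjusted p = 0.929 and 0.976 in the same model). DLX3 also lost its call without reset replicate 1 (−4.50 points, adjusted p = 0.0982).

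**Figure D1:**
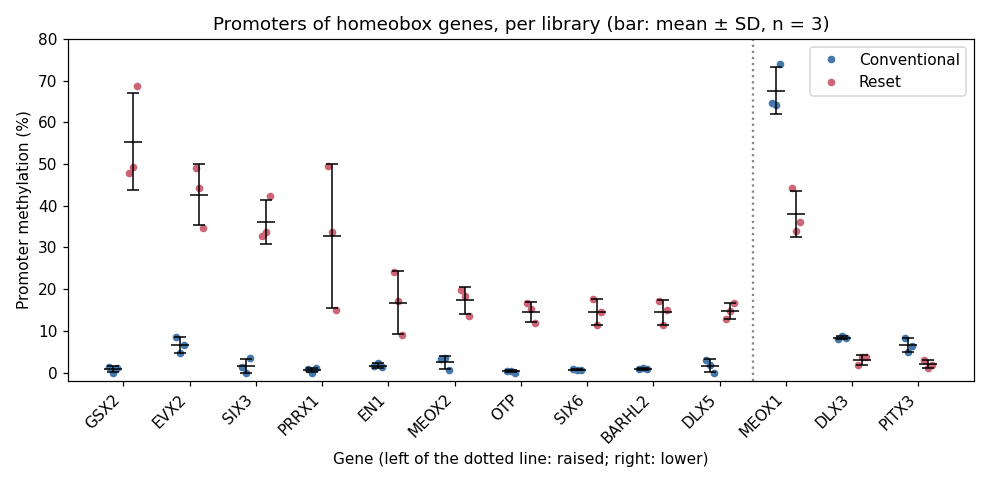
Promoter methylation in percent (vertical axis) of the 10 raised and the 3 lower promoters, 1 point per library, with mean and SD over the 3 libraries of a group. The reset libraries of GSX2 sit between 47.9 and 68.8%, while the raised promoters from EN1 to DLX5 stay at or under 24.2%.

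Of the 20 promoters with no call, most were near 0 in both groups. Among all 48 promoters, 39 were under 5% in conventional and 26 in reset cells, and 24 were under 5% in both. HHEX, a gene of the anterior endoderm and liver, stood at 1.39% ± 0.235 and 1.12% ± 0.342, IRX5 at 1.02% ± 0.418 and 0.760% ± 0.342, and GBX1 at 1.67% ± 0.917 and 0.922% ± 0.589 (SD, n = 3). Of these 24, 21 had at least 1 raised tile within 10 kb, a share no higher than that of all members (42 of 48). Among all 19812 coding genes, whatever their promoter level, 1368 had one. The share among coding genes with such promoters was not computed.

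The tiles showed gains in far more genes than the promoters did. Of 960 tiles 913 had enough calls, with a median of 85 calls per tile in conventional and 72 in reset libraries. The quasi-binomial model with limma called 430 tiles higher in reset cells (background 1.78% of 342749 tiles around all coding genes), 300 lower (background 92.6%) and 183 neither. Raised by the rule above were 332 tiles, or 36.4%, where 1.02% of all tiles were raised. These 332 tiles lay around 42 of the 48 genes, where 1368 of all 19812 coding genes had a raised tile. Raised promoters were 10 and 314, so in both sets more genes had a raised tile than a raised promoter. The other 98 higher tiles rose by under 10 points in 91 cases and had overlapping libraries in 29, some of them for both reasons. Tiles next to the limit were IRX5 from 1 to 2 kb after the start, raised with 10.0 points, and SHOX2 in the same place, not raised with 9.87 points.

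Low tiles gained and high tiles lost methylation, so that their means lay closer together in reset cells. Tiles under 20% in conventional cells (551 of 913) went from a mean of 4.61, 4.65 and 4.64% to 22, 22.2 and 22.5% in the reset libraries. Tiles of at least 80% (172) went from 88.6, 89.2 and 88.7% to 30.4, 31.0 and 31.0%, and all 172 were called lower, as were 255547 of 255620 such tiles around all coding genes. The tile-to-tile SD within a library fell from 35.3 to 17.2 points (mean of 3 libraries each), and the share of tiles between 10 and 50% grew from 17.9% ± 0.477 to 66.6% ± 0.456 (SD, n = 3). Over all coding genes these moved the same way, the SD from 27.9 to 17.7 points and the share from 7.28% ± 0.0251 to 68.4% ± 1.11. The classes were set on the conventional values that also enter the differences, and the means and the SD each had a two-sided exact permutation p of 0.1.

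The mean over all tiles moved little by comparison, from 30.2, 30.4 and 30.2% to 25.2, 25.7 and 25.9%, while that over all coding genes fell from 78.1% ± 0.0774 to 29.6% ± 0.579 (SD, n = 3). The small fall of the member tiles depended on which tiles were counted: with at least 20 calls in every library, which left 773 tiles, the mean was 1.23 points higher in reset cells. The median change of a tile was 3.33 points, and −52.0 points over all tiles tested.

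**Figure D2:**
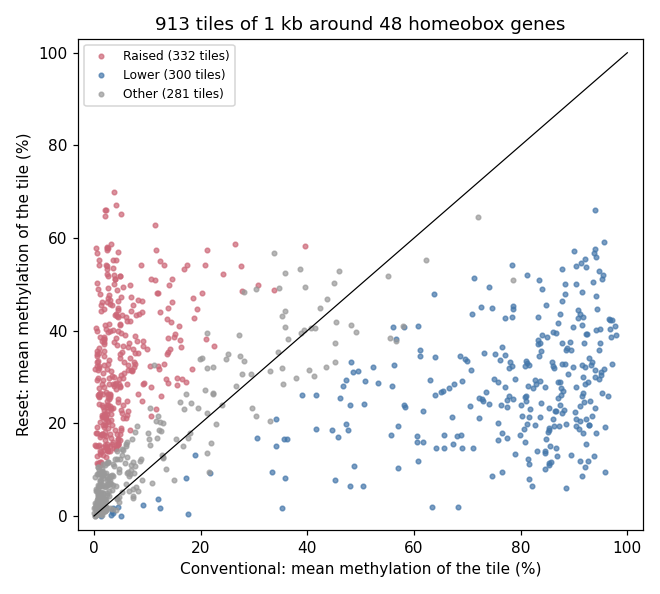
Mean methylation in percent of each of the 913 tiles in conventional (horizontal axis) and reset cells (vertical axis), with the line of equal levels. Of the 332 raised tiles, which reach at most 69.9% in reset cells, 320 start under 20% and 12 from 20 to 50%. Of the 300 lower tiles 172 start at 80% or more and 89 from 50 to 80%. Another 26 lower tiles start from 20 to 50%, 7 from 5 to 20% and 6 under 5%.

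Raised tiles had a median of 3.65% in conventional and 32.3% in reset cells, with reset quartiles of 22.5 and 44.1%. The median rise was 25.4 points, against a median SD between reset libraries of 5.76 points. In 47 tiles of 22 genes the reset level was at least 50%, and none reached 80%, so the gain left these tiles partly methylated. Of the 551 tiles under 20% in conventional cells 320 were raised, where 9.98% of all such tiles around coding genes were. Tiles from 20 to 50% were raised in 12 of 94 cases, against 1.37% of such tiles around all coding genes. In the range from 50 to 80%, 89 of 96 tiles were lower, a share near that of all coding genes (36536 of 37307).

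The largest single rise was in PITX1, a hindlimb gene, in the tile from 6 to 7 kb after the start, which takes in the end of the gene: 3.08, 4.21 and 3.82% in conventional and 71.1, 53.7 and 85.0% in reset libraries. SIX3 rose from 2.26, 1.59 and 2.30% to 74.7, 62.0 and 61.8% between 1 and 2 kb after its start, in an exon. IRX4, a gene of the heart ventricle, rose in the same place, also exonic, from 0, 4.17 and 2.68% to 59.2, 64.6 and 74.6%. The printed stretches of these genes come from these 3 tiles, and PITX1 and IRX4 are named for them. EN1 gained most in the tile from 2 to 1 kb before the start, between genes, where it stood at 3.36, 6.49 and 2.56% and then at 60.4, 69.9 and 70.8%. GSX2 gained most in the first 1 kb of the gene, from 4.62, 1.50 and 0% to 58.3, 64.1 and 71.9%. Among these tiles the reset libraries of PITX1 differed most from each other (SD 15.7).

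As a share of all tested tiles, pooled by distance, gains were least frequent within 1 kb of the start and most frequent from 1 to 5 kb. Raised were 21 of 96 tiles within 1 kb of the start (21.9%), 179 of 372 from 1 to 5 kb (48.1%) and 132 of 445 from 5 to 10 kb (29.7%). By single tiles, the share peaked at 62.2% from 4 to 5 kb after the start and was 20.8% in the first tile after it. It was lowest at the far upstream end, with 5 of 45 tiles (11.1%). Tiles under 20% in conventional cells were 10 of the 45 tested at that end. They were 46 of 48 in the first tile after the start and 35 of 45 from 4 to 5 kb. The order by distance therefore need not hold among such tiles. Around all coding genes, again over all tested tiles, the order was another one. Raised were 2.04% of the tiles within 1 kb, 1.21% from 1 to 5 kb and 0.631% from 5 to 10 kb. In 200-bp bins, methylation of the members was lowest in the last 200 bp before the start, at 3.06% ± 0.566 in conventional and 5.15% ± 0.248 in reset cells (SD, n = 3). Downstream, 201 of 460 tiles were raised, which is 60.5% of the raised tiles, and upstream 131 of 453. Over all coding genes 58.5% of the raised tiles lay downstream, a like skew.

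**Figure D3:**
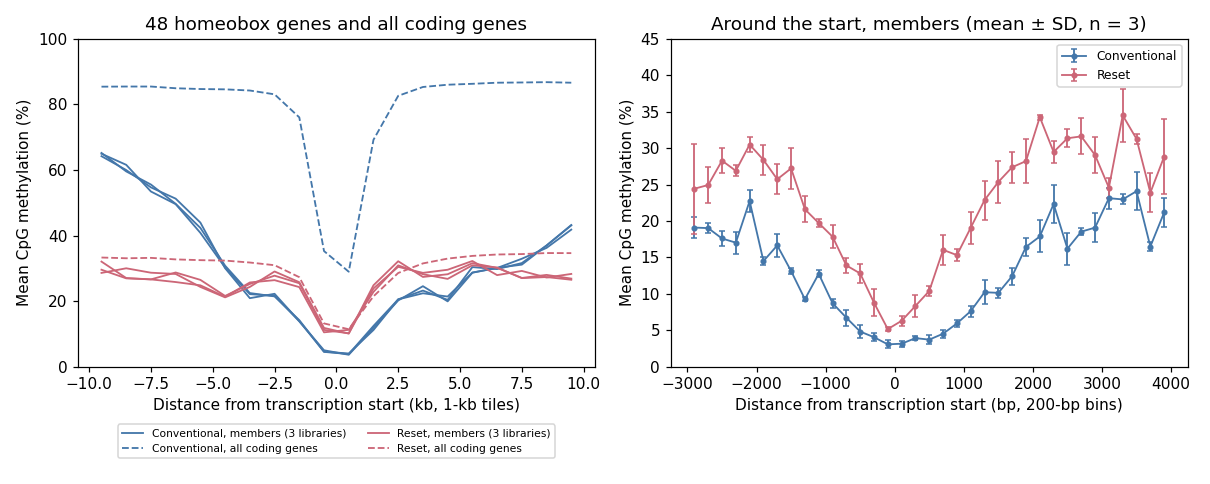
Left, mean methylation in percent of 1-kb tiles against distance from the start in kb, with 1 line per library for the members and dashed lines for all coding genes. Right, the same for members in 200-bp bins (mean ± SD, n = 3 libraries); reset cells dip to 5.15% at the start and lie above conventional cells on both sides.

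The conventional profile shows the width of the unmethylated stretch. The mean over members was 3.82% ± 0.191 in the first tile after the start, 20.6% ± 0.750 from 4 to 5 kb and 42.7% ± 0.784 from 9 to 10 kb, and 64.8% ± 0.516 at the upstream end (SD, n = 3). In reset cells the same tiles stood at 10.5% ± 0.636, 28.2% ± 1.39, 27.2% ± 0.940 and 30.1% ± 1.78. Over all coding genes the corresponding conventional means were 29, 86.0, 86.6 and 85.4%, and the reset means 11.4, 33.0, 34.6 and 33.3%. Away from the start, members and coding genes at large thus lay close to each other in reset cells and far apart in conventional cells.

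CpG islands, predicted from the sequence (500 bp or more, GC share 55% or more, CpG frequency over 0.65 of that expected), overlapped 255 of the 332 raised tiles (76.8%) and 507 of all 913. Among tiles under 20% in conventional cells, however, those with an island were raised less often (249 of 453, 55%) than those without (71 of 98, 72.4%). The same order held over all coding genes, at 8.08 and 27.8%. Tiles under 20% with 21 to 40 CpGs were raised in 69.2% of cases and those with more than 80 CpGs in 32.1%. Over all coding genes these shares were 16.9 and 3.36%, in the same order. Raised tiles had a median of 43 CpGs, and tiles under 20% that were not raised had 57. CpG number and distance move together. At 41 to 60 CpGs 4 of 19 tiles within 1 kb of the start were raised (21.1%) and 90 of 133 beyond it (67.7%). At 61 to 80 CpGs it was 5 of 21 and 48 of 82, and above 80 CpGs 6 of 43 and 21 of 41. At 21 to 40 CpGs there was no such gap, with 5 of 7 and 94 of 136. With at most 20 CpGs only 1 such tile lay within 1 kb. These shares are descriptions, since neighbouring tiles of a gene are not independent.

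By annotation, 102 of the 214 tiles that overlap an exon of the member itself were raised (47.7%), as were 39 of 120 in its introns. Outside the gene, 122 of 338 tiles that lie between genes were raised (36.1%), 35 of 124 in introns of other genes, 30 of 101 in exons of noncoding genes and 4 of 16 in exons of other coding genes. Gains were thus present in the gene itself as well as in its flanks. The 2 tiles of EVX2 farthest upstream overlap HOXD13, and 1 of them was raised, from 2.68 to 14.0%.

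**Figure D4:**
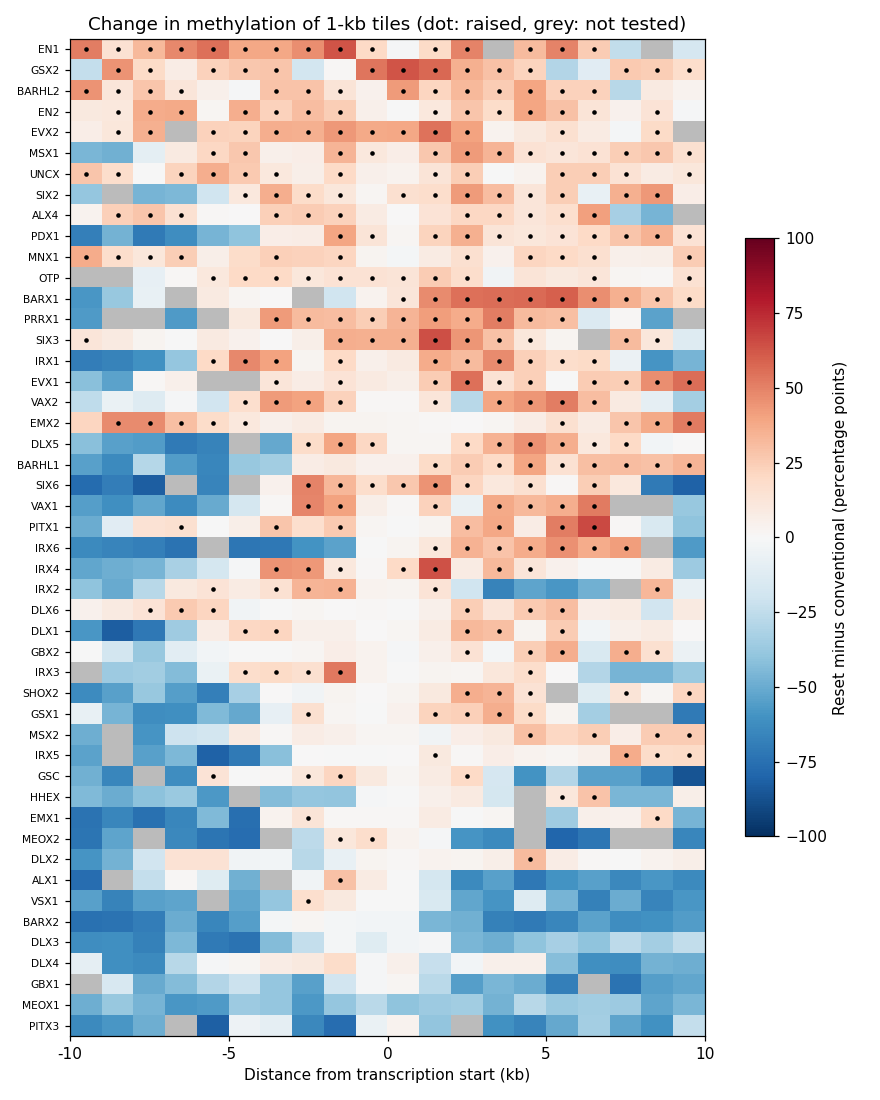
Change in methylation (reset minus conventional, percentage points; red is a gain, blue a loss) of each tile (columns, distance from the start in kb) in each of the 48 genes (rows, ordered by number of raised tiles). Dots mark the 332 raised tiles; gains fill most of the row of EN1, and losses fill the rows of MEOX1 and GBX1.

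Among genes, EN1 had the most raised tiles, 15 of 18 tested, followed by GSX2, BARHL2 and EN2 with 14 of 20 each. EVX2 (of 18), MSX1 and UNCX (of 20) had 13, SIX2 had 12 of 19, and ALX4 (of 19) and PDX1 (of 20) had 11, as did MNX1 and OTP. The median was 7 raised tiles, and 17 genes had at least 10. Raised tiles lay on both sides of the start in 30 genes, on the downstream side alone in 9 and on the upstream side alone in 3. Many were neighbours: 19 genes had a run of at least 5 raised tiles in a row, and the longest run was 10.

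The 2 engrailed genes, which mark the boundary of midbrain and hindbrain, had 29 of 38 tiles raised. EN1 had gains in each of the 10 upstream tiles and in 5 of the 8 downstream tiles tested. The first 1 kb after its start was not raised, with 2.07% ± 0.552 in conventional and 1.17% ± 0.315 in reset cells (SD, n = 3). EN2 gained most from 4 to 5 kb after its start, over an exon, from 8.77, 8.11 and 17.2% to 55.2, 36.6 and 60.7%. GSX2 had gains across its start, as its promoter did. BARHL2 gained most at the far upstream end, between 10 and 9 kb before the start, from 1.22, 1.57 and 1.55% to 40.8, 53.4 and 44.3%. EVX2 gained most from 1 to 2 kb after its start, in an exon, from 2.28, 0 and 0.667% to 46.6, 67.3 and 52.0%. Among these tiles, chosen as the largest rise of each gene, the reset libraries of EN2 spread most (SD 12.6).

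MSX1, which acts in the face, teeth and limbs, rose from 1.19, 7.69 and 6.45% to 50, 54.3 and 37.9% from 2 to 3 kb after its start, in an exon. UNCX, a gene of the posterior part of each somite, rose from 6.25, 3.37 and 5.17% to 41.2, 42.0 and 40.8% from 6 to 5 kb before its start, between genes, and it is the member with the raised coverage given above. The part of that coverage in its result was not tested. SIX2, which keeps nephron progenitors undifferentiated, rose from 2.42, 2.03 and 4.80% to 42.6, 45.6 and 51.7% from 8 to 9 kb after its start, past the end of the gene. ALX4, a gene of the skull and face, rose in its intron from 11.3, 17.2 and 10.7% to 48.8, 61 and 52.7%, 6 to 7 kb after the start. PDX1, the pancreas determinant, rose from 5.33, 2.23 and 4.07% to 46.5, 50 and 33.3% from 2 to 1 kb before its start. Adjusted p for the largest tile of each of these 10 genes lay between 5.24e-18 and 2.86e-10 (quasi-binomial model with limma). With the replicate number as a block in that model it lay between 9.47e-05 and 0.000150, so its size depended strongly on the model.

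The raised promoters had their largest tile elsewhere in most cases. PRRX1 gained most from 3 to 4 kb after the start, over an exon of a noncoding gene, from 2.94, 1.89 and 2.63% to 53.6, 50.7 and 56.0%, with less spread than in its promoter. SIX6 gained most from 3 to 2 kb before the start, in an intron of C14orf39, from 4.20, 1.32 and 2.04% to 46.3, 50 and 60.2%. DLX5 gained most near its end, from 7.89, 6.67 and 11.6% to 56.0, 59.5 and 46.8%, 4 to 5 kb after the start. OTP reached 25.6, 30 and 23.2% from 1 to 2 kb after its start, and MEOX2 18.1, 24.7 and 19.3% in the last 1 kb before it, where the conventional libraries were at most 1.21 and 4.90%. MEOX2 had only 2 raised tiles, both upstream and next to each other.

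Families were not uniform. SIX2, SIX3 and SIX6 together had 30 of 56 tiles raised, the EVX pair 23 of 36, BARHL 23 of 40, GSX 19 of 38, MSX 17 of 39, VAX 16 of 38 and IRX 39 of 115. DLX had 21 of 119, GBX 5 of 38 and MEOX 2 of 35. Within pairs of paralogues the members could lie far apart: BARX1, a gene of the stomach and face, had 10 raised tiles, all after its start, and BARX2 had no raised tile. PITX1 had 7 and PITX3 none, and ALX4 had 11 and ALX1 1. By class, 200 of 556 tiles were raised in ANTP, 63 of 186 in PRD, 30 of 56 in SINE and 39 of 115 in TALE genes.

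The 6 genes with no raised tile were BARX2, DLX3, DLX4, GBX1, MEOX1 and PITX3. Of their tiles, 0 (MEOX1), 2 (GBX1), 3 (DLX3), 4 (PITX3), 5 (BARX2) and 7 (DLX4) were under 20% in conventional cells. Other genes with few such tiles had raised ones among them: 2 of 7 in HHEX, 2 of 4 in MEOX2, 1 of 4 in ALX1 and 1 of 3 in VSX1. Whether the number of such tiles has a part in the lack of raised tiles was not tested. Across the 48 genes the numbers of such tiles and of raised tiles moved together (Spearman's rho 0.788, Pearson's r 0.807), as a description over genes whose raised tiles are nearly all among these tiles. Genes with many such tiles still differed. Of the 33 genes with at least 10 tiles under 20%, the raised share ran from 8.33% in DLX2 to 93.8% in EN1, with a median of 66.7%.

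Several genes with wide unmethylated stretches gained little. DLX2, a gene of forebrain interneurons, had 1 of 12 such tiles raised, and their mean went from 3.37, 2.91 and 3.09% to 6.64, 8.93 and 9.66%. EMX1, of the cerebral cortex, had 2 of 11 raised, with means of 4.74, 2.70 and 2.44% and then 7.16, 9.44 and 9.37%. IRX5 had 3 of 12 and GBX2, of the anterior hindbrain, 3 of 14. By contrast the 16 such tiles of EN1 went from 4.30, 4.13 and 3.73% to 39, 41.5 and 41.3%, and the 15 of GSX2 from 4.59, 5.66 and 4.37% to 38.0, 33.0 and 39.1%. All 6 genes were picked after their values had been seen, from the low and high ends of this share, and the difference between genes was not tested.

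**Figure D5:**
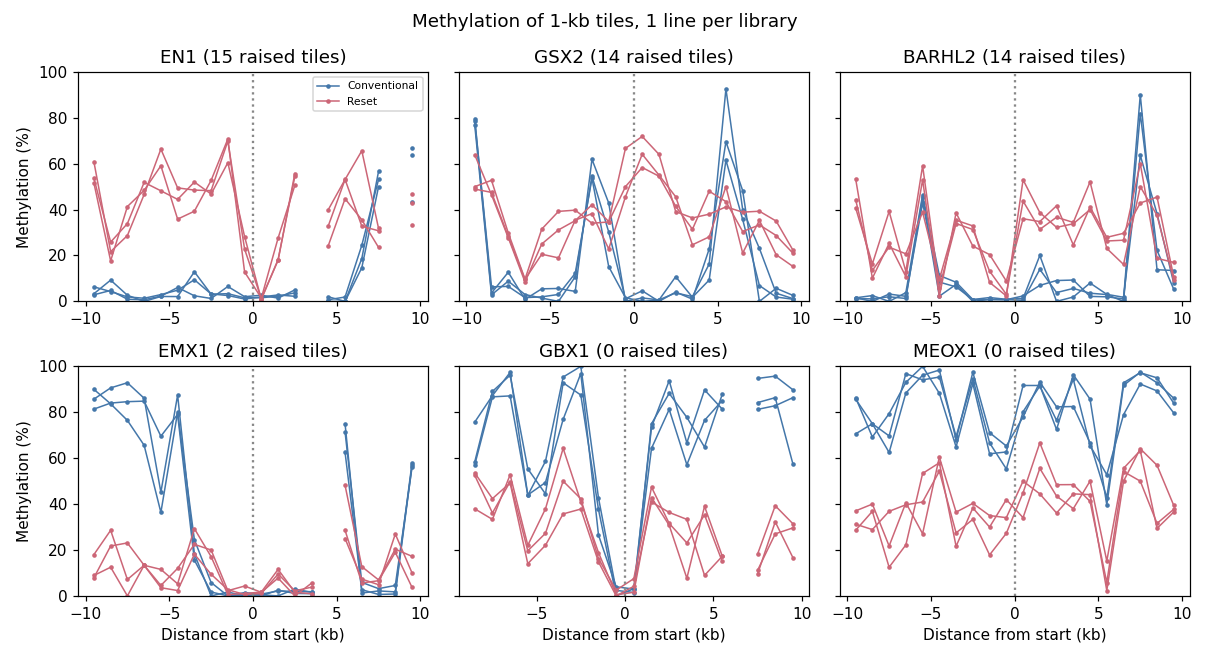
Methylation in percent of 1-kb tiles against distance from the start in kb, 1 line per library. The top row shows EN1, GSX2 and BARHL2, which had the most raised tiles. EN2 had as many as GSX2 and BARHL2 and was left out for the smaller sum of its rises. The bottom row shows 3 genes with few or none, chosen after their values were seen. Reset libraries lie above conventional ones across most of EN1, stay low with them around the start of EMX1, and lie below them across MEOX1.

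Some members are neighbours and share part of their surroundings. The starts of DLX1 and DLX2 are 17393 bp apart on chromosome 2 and those of DLX5 and DLX6 19278 bp apart on chromosome 7, and 8 tiles overlapped a tile of another member, none of them raised. DLX1 had 5 raised tiles against 1 in DLX2, and DLX5 had 9 against 6 in DLX6. When tiling was continued over whole genes and 10 kb past their ends, 371 of 1403 tiles were raised (background 0.381%), and 38 of these lay more than 10 kb past the start of 17 genes.

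Gene bodies, taken from 500 bp after the start to the end of the transcript, split into gains and losses by their starting level. They overlap the downstream tiles and are no separate evidence. The mean over 48 bodies was 19.3, 19.8 and 19.0% in conventional and 23.9, 25.1 and 25% in reset libraries (p = 0.1 in the same exact permutation test), where all coding genes fell from 81.6% ± 0.147 to 31.8% ± 0.462 (SD, n = 3). In the quasi-binomial model with limma 32 bodies were higher (background 1.15%), 13 lower (97.8%) and 25 raised (0.768%). The 25 raised bodies were among the 35 that stood under 20% in conventional cells, 32 of which were higher. Over all coding genes, 139 of the 461 bodies under 20% were raised. The 7 member bodies of at least 50% were all lower.

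The largest gains over the body were in GSX2, from 1.97, 1.56 and 1.50% to 58.6, 61.3 and 64.2%, in BARX1, from 2.62, 4.55 and 3.01% to 52.5, 47.7 and 54.8%, and in SIX3, from 1.74, 2.23 and 1.02% to 36.8, 48.8 and 52.2%. SIX6 and BARHL2 followed with gains of 35.8 and 34.7 points. BARX1 reached this level although its promoter was not raised (2.53% ± 0.0775 and 7.34% ± 6.04, SD, n = 3). The largest losses were in MEOX2, from 79.5, 81.8 and 83.5% to 18.4, 17.9 and 18.3%, and then in ALX1, which fell by 55.1 points, BARX2, which fell by 54.3 points, GBX1, which fell by 49.5 points, and MEOX1, which fell by 48 points. Adjusted p for these 10 bodies lay between 5.96e-26 and 1.43e-12 in the same model, and between 3.56e-19 and 1.14e-10 with the replicate number as a block. MEOX2 and PRRX1 thus combined a raised promoter with a loss over the body, PRRX1 from 65.9% ± 1.44 to 21.7% ± 1.63 (SD, n = 3). Raised bodies had a median length of 4988 bp and lower bodies 21034 bp.

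The same fits gave values for other gene lists, chosen like the members with earlier results of these data known. The 39 HOX cluster genes had 290 of 751 tiles raised (38.6%) and 10 of 39 promoters, with HOX tiles of neighbouring genes overlapping each other. Another 43 homeobox genes, listed as developmental and with NANOG among them, had 128 of 804 tiles (15.9%) and 6 promoters raised. Of their promoters 13 were lower. Most of these had no CpG island and were methylated in conventional cells, such as those of ARGFX (93.9%) and SEBOX (91.5%). A list of 32 homeobox genes of mostly broader expression had 51 of 599 tiles raised (8.51%), and 4 of their promoters were higher, none by 10 points. Among the 29 genes of Polycomb subunits and co-factors 16 of 552 tiles were raised (2.90%), 1 promoter was higher and 14 were lower. The members and the HOX genes were alike in having few methylated tiles in conventional cells, with medians of 8.22 and 10.7%, where the medians of the other lists were 70.5% (developmental), 81.9% (broader expression) and 88.6% (Polycomb). Differences between lists were not tested.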

How the data were processed

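Per the labels, genomic DNA of H9 cells was sonicated, ligated to methylated adapters, bisulfite-treated and amplified, and Trim Galore and then Bismark on GRCh37 were run by the authors (Bismark 0.9.0 in the submitters' processing notes, while the study's methods name an earlier version). The deposited files give, for each CpG cytosine and library, the counts of methylated and unmethylated calls and their percent. The deposited percent was checked against the counts and not used further. Removal of duplicate reads or of feeder DNA was not given in the sources used here.

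Both strands of a CpG were pooled. A level was the percentage of methylated calls over a feature with at least 10 calls in every library. Genes came from GENCODE 44 mapped to GRCh37, with 1 canonical transcript each. Promoters, tiles and bodies of all coding genes were fitted with a quasi-binomial model of the calls, tested by an F test of the likelihood ratio. The dispersions were squeezed by limma 3.58.1 (R 4.3.3) and not let under 1. P-values were adjusted over all features by the Benjamini-Hochberg method (threshold 0.05). Means over members were compared with a two-sided exact permutation test over libraries. On simulated calls with a rise of 10 points, the raised rule recovered 47.5% of promoters, 4.5% of tiles and 35% of bodies. With 20 points it recovered 100, 31 and 93%, and with 40 points 100, 85 and 99.5%. In that simulation 200 features of each kind were changed for each size of rise, far fewer than were called in the data. Its adjusted threshold was therefore stricter than in the data, and these shares do not carry over to the members. Libraries with the same number did not deviate together (correlations of 0.000260, 0.00469 and 0.00286 over tiles), so the main model had no replicate block.

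The members, the lists and the rule for named genes were chosen with earlier results of these data known. The rule named every member with a raised promoter (up to 10), the 10 members with the most raised tiles and the largest raised tile of each of these. Ties in the number of raised tiles were broken by the sum of their rises. It also named the 5 largest promoter falls past the threshold, the members without a raised tile and pairs of members within 20 kb. The 5 largest rises and falls of bodies were named too. Sequences were read from the GRCh37 genome. Limits for levels of 0 use 3 counts and cover counting error only.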

Additional observations from a re-analysis of the deposited data

How the results depend on the processing

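Thresholds, bounds and weights were changed 1 at a time. With a rise of at least 20 points, 4 promoters and 223 tiles were raised. Promoters cut to 500 bp before the start gave 15 higher and 8 raised promoters, rises of 9.14 points in EN1 and 7.08 points in DLX5, a change of −0.40 points in DLX3 (adjusted p = 0.929, quasi-binomial model with limma) and of 0.0059 points in PITX3 (adjusted p = 0.976). Lower tiles were 195 with at least 20 calls and 728 with tiling over whole genes. The mean tile level changed by −5.94 points with at least 5 calls, by 1.23 points with at least 20 calls, where thinly covered tiles drop out and the direction turned, and by −4.29 points with single CpGs weighted equally, against −4.65 as reported. The mean body level changed by 6.45 points with single CpGs weighted equally, against 5.31. The cause of these shifts was not tested. Leaving out 1 library at a time gave 329 to 339 raised tiles, 10 raised promoters each time, 20 to 25 higher promoters, 24 to 26 raised bodies and a change of −4.94 to −4.58 points in the mean tile level. Among the features named by the rule, which do not include the PITX1 and IRX4 tiles, only DLX3 lost its call that way, without reset replicate 1 (−4.50 points, adjusted p = 0.0982; range over left-out libraries −5.57 to −4.50). The replicate number as a block gave 27 higher promoters, 331 raised tiles and 25 raised bodies. Fisher's exact test on pooled calls, replaced by a likelihood-ratio chi-square test where calls were many, gave 30 higher promoters. With it 10 promoters, 334 tiles and 25 bodies were raised. The raised rule kept its limits on size and overlap there, so these counts could move little. A tile without a call is not shown to be without a rise.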
